A study of Homo sapiens with 21 samples.

Results

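HNRNPK binding was examined on 8 integrin genes, the alpha subunit genes ITGA2, ITGA3, ITGA6 and ITGAV and the beta subunit genes ITGB1, ITGB3, ITGB5 and ITGB8. The members were the clusters, which are stretches of RNA where crosslinked reads pile up, that carry one of these 8 names. There were 534 such clusters of 778762 in all, and 8 genes of 18322 with a cluster. The clusters came from 4 PAR-CLIP libraries, an assay in which 4-thiouridine (4SU) fed to cells crosslinks to a bound protein under ultraviolet light and is then read as C in place of T. The established line MDA-MB-231, from a triple-negative breast cancer, was used either parental or as KRT19 KO, in which the keratin 19 gene was disrupted with CRISPR/Cas9. Both were fed 4SU, irradiated with ultraviolet light and separated into cytoplasm and nucleus, RNA was trimmed with RNase T1, which cuts after G, and HNRNPK was precipitated with 1 antibody from each fraction. With 1 library for each of parental cytoplasm, KRT19 KO cytoplasm, parental nucleus and KRT19 KO nucleus, genotype or fraction and library cannot be told apart, and no test between them was made.

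Integrins are cell surface receptors made of an alpha and a beta subunit that hold cells to the extracellular matrix and pass signals across the membrane. ITGB1 pairs with ITGA2 as a collagen receptor and with ITGA3 or ITGA6 as laminin receptors, and ITGAV pairs with ITGB1, ITGB3, ITGB5 or ITGB8 in receptors for vitronectin, fibronectin and latent TGF-beta. HNRNPK is an RNA-binding protein that moves between nucleus and cytoplasm and contacts C-rich stretches through its KH domains.

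The sequences below come from the site with the most reads in each gene and show how much the contacted stretches differ in C runs. Each is read 5′ to 3′ on the transcribed strand of hg19 (GRCh37), as DNA letters, with runs of 3 or more C in capitals, and longer clusters are given as 30 bases around the position of the read peak. GRCh37 gave the same letters as the deposited sequence for all 534 clusters.
ITGA2, 3′UTR, chr5:52386497-52386526, plus strand: atttctttttaaatCCCatattttttttat
ITGA3, intron 18, chr17:48155780-48155809, plus strand: gatcatccttttcttaacaacaacaatcac
ITGA6, 3′UTR, chr2:173369839-173369868, plus strand: catgacagcctccaCCCCacaaCCCaaaag
ITGAV, 3′UTR, chr2:187544590-187544619, plus strand: tacctgtgttatgaaactacttattcatag
ITGB1, intron 9, chr10:33210838-33210867, minus strand: tctccaatctttttcctCCCCaaaatatcc
ITGB3, intron 1, chr17:45335935-45335964, plus strand: ttttccatcatCCCCtaaaattCCCCCaag
ITGB5, intron 10, chr3:124493141-124493162, minus strand: caaaatccttaacttaatctca
ITGB8, 3′UTR, chr7:20453483-20453510, plus strand: tatttaatttacaactatccttatttat
The windows of ITGA2, ITGA6, ITGB1 and ITGB3 hold a run of 3 or more C, and those of ITGA3, ITGAV, ITGB5 and ITGB8 hold none.

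The 4 libraries held between 3252800 and 6216226 reads in clusters, and the integrin clusters held 4942 reads in parental cytoplasm, 1965 in KRT19 KO cytoplasm, 4241 in parental nucleus and 2153 in KRT19 KO nucleus. The files list only clusters of at least 5 reads, so a gene without a cluster may still have been bound below that level. Unique reads made up 30.8% of the integrin reads in parental cytoplasm, 44.7% in KRT19 KO cytoplasm, 21.2% in parental nucleus and 18.4% in KRT19 KO nucleus. The T-to-C share of integrin reads, the mark of crosslinking, was 56.7% (95% Wilson interval 55.3 to 58.1%) in parental cytoplasm and 59.3% (57.2 to 61.5%) in KRT19 KO cytoplasm. It was 66.1% (64.7 to 67.5%) in parental nucleus and 70.6% (68.6 to 72.4%) in KRT19 KO nucleus. All clusters of the same libraries had 66.4%, 59.6%, 72.9% and 76.7%. As counted, the integrin clusters lay below the library as a whole in all libraries but KRT19 KO cytoplasm, where the interval includes it. The shares of all clusters were not matched for reads or class. With only clusters of at least 10 reads, or of at least 2 converted positions, the integrin share left its interval in all 4 libraries. These intervals and those below cover counting error only, since copies of 1 molecule are not independent. Of the genes that mark such cells, CD44 had 54 to 72 clusters and VIM 6 to 10 in every library, and FN1 had 15 to 138 reads. Of epithelial markers, CDH1 had 6 reads in KRT19 KO nucleus and no cluster elsewhere and EPCAM 0 to 41 reads. Levels are given as RPM, the reads per 1000000 reads in clusters of the same library. The nuclear RNA NEAT1 had 226.4 and 204 RPM in parental and KRT19 KO cytoplasm against 789 and 1092 in the nuclei, as the fractions' labels say. KCNQ1OT1, another nuclear RNA, went the same way, with 22.5 and 57.4 against 45.5 and 167. MALAT1, also a nuclear RNA, went against the labels, with 1229 and 842 in the cytoplasmic libraries against 888 and 548 in the nuclear ones. Reads of nuclear RNA were thus present in the libraries labelled cytoplasm, and their part in the integrin intron reads there was not tested. KRT19 itself had 7 reads in parental cytoplasm, 5 in KRT19 KO cytoplasm and no cluster in either nucleus, too few to check the genotype.

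Introns held most integrin reads in all libraries but KRT19 KO cytoplasm. Of the 13301 reads on the 8 genes, 9824 (73.9%) lay in introns, 3143 (23.6%) in 3′UTRs and 317 (2.38%) in other exonic sequence. The share of clusters in 3′UTRs was 11.8% (7.69 to 17.7%) in parental cytoplasm and 21.2% (13.8 to 31.0%) in KRT19 KO cytoplasm, against 10.7% and 16.0% of all clusters. It was 5.23% (2.78 to 9.64%) in parental nucleus and 6.03% (2.95 to 11.9%) in KRT19 KO nucleus, against 3.86% and 4.05%. All 4 intervals include the share of the library as a whole. By reads, 3′UTRs took 35.6% and 49.3% of integrin reads in parental and KRT19 KO cytoplasm and 4.93% and 9.71% in the nuclei, against 31.6%, 47.4%, 5.35% and 5.43% of all reads in clusters. Introns took 63.6%, 44.5%, 92.8% and 86.9% of integrin reads, against 42.3%, 23.0%, 67.0% and 59.7% of all reads. Of all reads, however, 23.1%, 20.5%, 24.5% and 29.9% lay outside introns, 3′UTRs and other exonic sequence. Members chosen by gene name almost lack such reads (0.128%), which raises their intron and 3′UTR shares against all reads. The shares of clusters have the same limit, so none of these contrasts shows where integrins stand among annotated genes.

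The subunits differed in where they were bound. In parental and KRT19 KO cytoplasm the 3′UTR held 54.2% and 60.9% of the reads of ITGA2, 90.2% and 81.4% of those of ITGA6, and 60.6% and 82.0% of those of ITGAV. In parental and KRT19 KO nucleus it held 15.6% and 9.73% for ITGA2, 28% and 71.8% for ITGA6, and none and 34.9% for ITGAV. ITGA3 had 5.22% of its reads there over the 4 libraries. No cluster named ITGB1, ITGB3 or ITGB5 had the deposited class of 3′UTR in any library, although ITGB1 had the most reads of all members (4028). By position, 2 ITGB3 sites with 20 reads, deposited as intronic, lay in the canonical 3′UTR, and no site of ITGB1 or ITGB5 did. The 2 clusters of ITGB8 were both in its 3′UTR. Among 9675 genes with a 3′UTR of at least 500 bases, 27.5% had no 3′UTR site. These genes were not matched for reads, and only 2.38% of genes had more reads than ITGB1 in parental nucleus. How often genes with as many reads as ITGB1 lack a 3′UTR site was therefore not shown. Counted per length of 3′UTR, ITGA3 held 5.69 sites per kb, ITGAV 3.60, ITGA2 2.63, ITGA6 2.51 and ITGB8 0.347, where the median gene held 1.23.

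**Figure D1:**
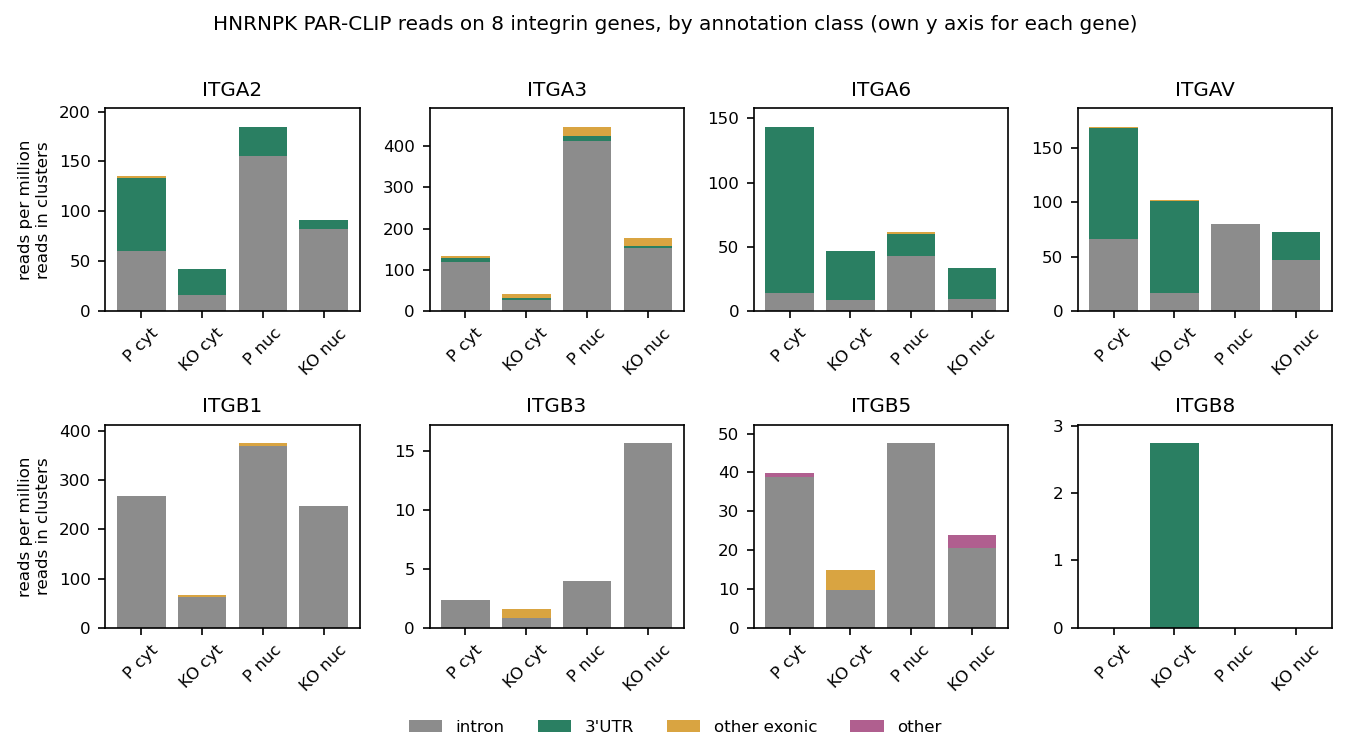
RPM (y axis, its own for each gene) for the 8 integrin genes in parental cytoplasm (P cyt), KRT19 KO cytoplasm (KO cyt), parental nucleus (P nuc) and KRT19 KO nucleus (KO nuc), with bars stacked by annotation class and 1 library per bar. Most reads of ITGA2, ITGA6 and ITGAV in both cytoplasmic libraries have the deposited class of 3′UTR, and none of ITGB1, ITGB3 or ITGB5 do.

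ITGA6, a laminin receptor subunit, had most of its reads in 1 place. The site at chr2:173369807-173369868, 1319 bases before the end of the canonical transcript, had 662 reads in parental cytoplasm, 79 in KRT19 KO nucleus, and no cluster in KRT19 KO cytoplasm or parental nucleus. It held 83.2% of the ITGA6 reads of parental cytoplasm and 71.8% of those of KRT19 KO nucleus. A second site at chr2:173369552-173369583 had the reverse pattern, with 228 reads in KRT19 KO cytoplasm, 15 in parental nucleus and no cluster in parental cytoplasm or KRT19 KO nucleus. Its sequence, shown because the pair of sites took turns across the libraries and chosen after the values were seen, also holds a C run.
ITGA6, 3′UTR, second site, chr2:173369552-173369581, plus strand: agtttcattctCCCtttcactaaaacacac
Between them lay 1 further site of 5 reads, and the gaps on either side of it were 7 and 192 bases. The T-to-C share was 36.4% at the first site in parental cytoplasm and 47.8% at the second in KRT19 KO cytoplasm. Counted as a whole, ITGA6 had 143 RPM in parental cytoplasm, 46.8 in KRT19 KO cytoplasm, 61.6 in parental nucleus and 33.8 in KRT19 KO nucleus.

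ITGAV, the subunit shared by the vitronectin receptors, also had 1 leading 3′UTR site, but this one was found in both cytoplasmic libraries at about the same depth. The site at chr2:187544590-187544652 lay 976 bases before the transcript's end and had 475 reads in parental cytoplasm, 467 in KRT19 KO cytoplasm and 64 in KRT19 KO nucleus. This was 85.6, 75.1 and 19.7 RPM. Parental nucleus had no ITGAV cluster in the 3′UTR, and all of its 284 ITGAV reads were intronic. The remaining 12 3′UTR sites of ITGAV held 5 to 42 reads each. Intron reads of ITGAV were 65.7 RPM in parental cytoplasm, 17.1 in KRT19 KO cytoplasm, 80.3 in parental nucleus and 47.0 in KRT19 KO nucleus, so KRT19 KO cytoplasm was the lowest of the 4 there and the 3′UTR was not.

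ITGA2, the alpha subunit of a collagen receptor, had 11 sites in its 3′UTR. The site shown above, 71 bases after the stop codon, had 148 reads in parental cytoplasm and 76 in KRT19 KO cytoplasm and no cluster in either nucleus. The next by reads, at chr5:52388142-52388174, had 153 reads in parental cytoplasm, 41 in parental nucleus and 24 in KRT19 KO nucleus, and none in KRT19 KO cytoplasm. It was chosen for printing after the values were seen, because it had no run of 3 C.
ITGA2, 3′UTR, second site, chr5:52388143-52388172, plus strand: cttcctataatacaaatacacaatcctcca
Of 40 3′UTR sites in the 5 genes with any, 26 (65%, 49.5 to 77.9%) were found in the cytoplasm only, 6 in the nucleus only and 8 in both fractions. All 3′UTR sites with the same number of reads gave 70.5% for the cytoplasm only, which is within that interval. Only 3 were present in both cytoplasmic libraries and 2 in both nuclear ones, and none in all 4. As a share, 25% (14.2 to 40.2%) of integrin 3′UTR sites were in 2 or more libraries, where all 3′UTR sites with the same number of reads gave 29.6%.

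**Figure D2:**
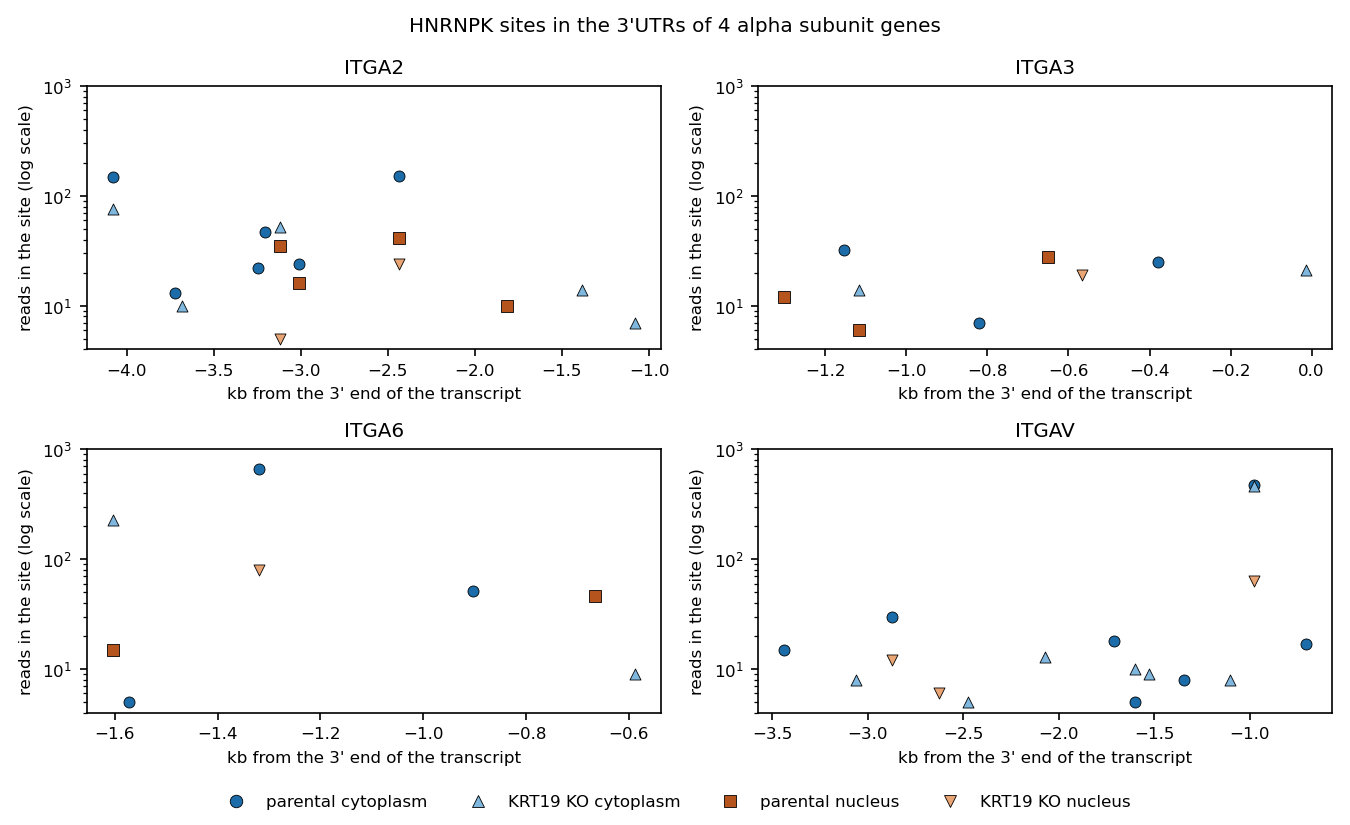
Sites in the 3′UTRs of ITGA2, ITGA3, ITGA6 and ITGAV, placed by their distance in kb from the 3′ end of the canonical transcript (x axis), with the reads of each library on a log scale (y axis) and 1 symbol per library. The 662-read ITGA6 site of parental cytoplasm and the 228-read site of KRT19 KO cytoplasm stand at different places, while the leading ITGAV site has 475 and 467 reads at the same place.

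ITGA3, the second laminin receptor subunit, was bound over much of a short gene. Its introns, 29.5 kb in all, held 57 sites, or 19.3 per 10 kb, and 1.16% of 10977 genes had more, where the median gene had 3.96. The intron 18 site shown above had 240 reads in parental nucleus, 145 in KRT19 KO nucleus, 114 in parental cytoplasm and no cluster in KRT19 KO cytoplasm. An intron 23 site at chr17:48164541-48164573 was found in all 4 libraries, with 153 reads in parental nucleus, 76 in parental cytoplasm, 51 in KRT19 KO nucleus and 49 in KRT19 KO cytoplasm. Parental nucleus had the most reads at both. ITGA3 also had the best covered site in other exonic sequence, in the class of coding sequence, with 72 reads in parental nucleus, 55 in KRT19 KO cytoplasm and 48 in KRT19 KO nucleus, and it was chosen for this after the values were seen.
ITGA3, coding class, chr17:48156594-48156619, plus strand: ttatcaaCCCtctcaacctcactctt
It lies inside an exon of the canonical transcript of GENCODE v44.

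ITGB1, the beta subunit shared by the collagen and laminin receptors named here, had 90 sites, of which 84 were intronic. Its introns held 15.5 sites per 10 kb, and 2.82% of genes had more. Intron 1 alone held 42 of them. The intron 9 site shown above was found in every library, with 153 reads in parental cytoplasm, 71 in KRT19 KO cytoplasm, 140 in parental nucleus and 79 in KRT19 KO nucleus. The next by reads, in intron 1 at chr10:33236763-33236801, had 137, 81, 104 and 60 in the same order, and is printed, as chosen after the values were seen, because it shares with the former a run of 4 C.
ITGB1, intron 1, chr10:33236769-33236798, minus strand: cttatttaaacttcacaaaaCCCCtacaag
At both sites the KRT19 KO libraries had fewer reads than the parental libraries of the same fraction. Of the 7 integrin sites found in all 4 libraries, 4 were in ITGB1, 2 in ITGA3 and 1 in ITGA2, and all 7 were intronic.

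**Figure D3:**
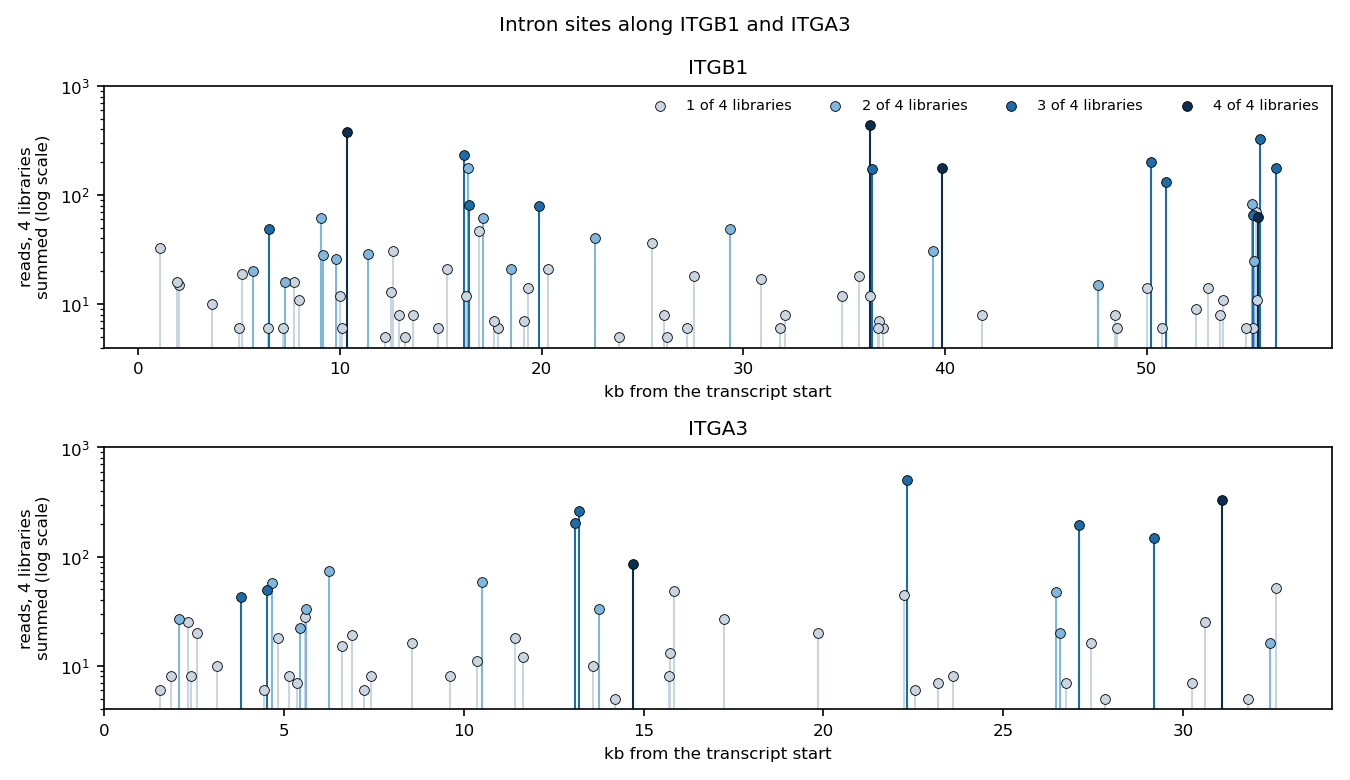
Intron sites of ITGB1 and ITGA3 by distance in kb from the transcript start (x axis), with reads summed over the 4 libraries on a log scale (y axis) and darker points for sites found in more of the 4 libraries. The sites with the most reads are mostly those found in 3 or 4 libraries, such as the ITGB1 site of 443 reads and the ITGA3 site of 329 reads, both found in 4. Summing over libraries favours this by itself, since each library with the site adds its reads.

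ITGB5, a partner of ITGAV, was bound more thinly, with 37 intron sites over 121 kb of introns, or 3.06 per 10 kb. Its RPM was 39.8 in parental cytoplasm, 14.8 in KRT19 KO cytoplasm, 47.5 in parental nucleus and 24.0 in KRT19 KO nucleus. The site shown above had 35 reads in parental nucleus and 15 in KRT19 KO nucleus and was absent from the cytoplasmic lists. ITGB3, another partner of ITGAV, had 13, 10, 14 and 51 reads in parental cytoplasm, KRT19 KO cytoplasm, parental nucleus and KRT19 KO nucleus, in 7 sites that were each found in 1 library. ITGB8, which with ITGAV binds latent TGF-beta, was listed in KRT19 KO cytoplasm only, with 17 reads in 2 clusters. ITGB3 and ITGB8 had too few reads for the comparisons of libraries below.

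Scaling to intron length sets reads of bound RNA side by side between genes. RNA levels were not analysed here, so the order may reflect the amount of each RNA as well as its binding. In parental nucleus the RPM per kb of intron were 13.9 for ITGA3, 6.85 for ITGB1, 1.60 for ITGA2, 0.958 for ITGAV, 0.584 for ITGA6, 0.393 for ITGB5 and 0.0733 for ITGB3. In KRT19 KO nucleus ITGA3 with 5.18 and ITGB1 with 4.56 were again the highest, and in both cytoplasmic libraries ITGB1 with 4.93 and 1.14 stood above ITGA3 with 4.01 and 0.878. The share of 12353 genes with more intron reads per kb was 0.364% for ITGA3 and 1.65% for ITGB1 in parental nucleus, and 10.3% and 7.48% in KRT19 KO cytoplasm. Without replicates it cannot be said which neighbours in this order differ.

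Over all classes, integrin sites were shared between libraries about as often as other sites. Of 385 integrin sites, 103 (26.8%, 22.6 to 31.4%) were found in 2 or more libraries and 7 (1.82%, 0.883 to 3.70%) in all 4. All sites with the same class and number of reads gave 28.2% and 2.88%. By gene, the share in 2 or more libraries ran from 21.4% of 84 sites in ITGA2 to 36.4% of 22 sites in ITGA6 among the 6 genes with over 20 sites, and all of these intervals overlapped. The intron sites were no more often near exons than others, with 5 of 323 (1.55%, 0.663 to 3.57%) within 100 bases before an exon and 8 (2.48%, 1.26 to 4.81%) within 100 bases after one, against 1.98% and 1.78% of 321773 intron sites.

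C runs were searched in the cluster sequence as transcribed, on 1 strand. The motif CCC was in 244 of 534 integrin clusters (45.7%, 41.5 to 49.9%), and clusters of the same length and class held it in 42.8%. In introns the share was 47.3% (42.8 to 51.8%) against 43.3%, and in 3′UTRs 30.2% (19.5 to 43.5%) against 38.0%. TCCC, which overlaps CCC, was in 35.4% (31.5 to 39.5%) against 30.9%, and CCCC in 17.0% (14.1 to 20.5%) against 16.8%. Of these 3 motifs over all classes, only for TCCC did the interval leave out the value of the matched clusters, and narrowly. By gene, CCC was in 53.4% (43.8 to 62.7%) of the ITGA3 clusters and 42.3% (34.4 to 50.7%) of those of ITGB1. C made up 33.0% of the bases in ITGA3 clusters and 24.7% in ITGB1 clusters, against 27.0% in all clusters.

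The comparison of KRT19 KO with parental cytoplasm asked how reads of bound RNA differed between the genotypes in this fraction. RNA levels were not analysed here, so in this and the later comparisons binding and RNA amount cannot be told apart. The RPM of integrin genes were lower in KRT19 KO cytoplasm, 316 for the 8 genes together against 890 in parental cytoplasm. A gene was taken as past the fold where the 2 libraries together held at least 100 reads and the RPM differed at least 2-fold. Of 6 such integrin genes, 5 were at least 2-fold lower and none higher, where 20.2% of 7783 genes tested were lower and 19.6% were higher. The median log2 ratio was -1.65 over the 6 genes and -0.06 over all genes tested. ITGB1 went from 268 to 65.8 RPM, a log2 ratio of -2.03 (95% interval -2.19 to -1.87). ITGA3 went from 132 to 40.4 (-1.71, -1.93 to -1.50) and ITGA2 from 135 to 42.0 (-1.69, -1.90 to -1.48). The 3 genes thus had 3 to 4 times lower RPM in KRT19 KO cytoplasm, and 6.73 to 9.07% of genes tested had lower ratios. The log2 ratio was -1.61 for ITGA6 and -1.43 for ITGB5, and ITGAV stood apart with -0.73 (-0.88 to -0.58). Without its leading 3′UTR site ITGAV had -1.63, so the ITGAV value rests on 1 site. ITGA6 turned to 0.96 without its own, which had 662 reads in parental cytoplasm and no cluster in KRT19 KO cytoplasm. Its second site was kept there, with 228 of the 291 reads in KRT19 KO cytoplasm and no cluster in parental cytoplasm. The ITGA6 value thus rests on 2 sites of opposite pattern. With unique reads in place of reads ITGB5 had -1.28 (-1.98 to -0.60) but fell under the minimum of 100 reads, which left 4 genes counted.

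Introns and 3′UTRs differed in this comparison. In intron reads the log2 ratio was -1.87 for ITGA2, -2.19 for ITGA3, -0.69 for ITGA6, -1.95 for ITGAV, -2.11 for ITGB1 and -1.98 for ITGB5, beside a median of -0.72 over all genes with at least 100 intron reads. In 3′UTR reads it was -1.52 for ITGA2, -1.76 for ITGA6 and -0.29 for ITGAV, beside a median of 0.70 over all genes. Relative to these medians ITGA2 and ITGAV were thus lower in both classes. ITGA6 was lower in 3′UTR reads only, and its intron reads lay at the median. ITGA3, ITGB1 and ITGB5 were lower in intron reads and had too few 3′UTR reads to be tested. Scaled by intron reads alone, 4 genes were at least 2-fold lower, which were ITGA3, ITGAV, ITGB1 and ITGB5. The share of all genes past 2-fold in that scaling was not counted, so whether 4 is many cannot be said.

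In the nucleus the same comparison gave log2 ratios nearer 0 for all 6 genes when all reads were counted. In intron reads ITGA6 was the exception, with -2.16 in the nucleus against -0.69 in the cytoplasm. Without its leading site ITGA6 had -2.69 in the nucleus and was then at least 2-fold lower there. Of 6 genes tested, 2 were at least 2-fold lower and none higher, where 15.7% of 7349 genes were lower and 11.2% higher. ITGA3 went from 446 to 177 RPM (log2 ratio -1.33, -1.47 to -1.19). ITGA2 went from 185 to 91.6 (-1.01, -1.21 to -0.81), just past the fold, and ITGB5 with -0.99 was just short of it. ITGB1 had -0.60 (-0.73 to -0.47), ITGA6 -0.87 and ITGAV -0.15 (-0.41 to 0.10). All 6 values were below 0, with a median of -0.93 beside -0.11 over all genes. The ITGAV value joins parts of opposite direction. Its intron reads gave -0.77 (-1.06 to -0.48). Its 3′UTR had no cluster in parental nucleus and 82 reads in KRT19 KO nucleus, 64 of them at its leading site. ITGB3, with 51 against 14 reads, was the only member with a higher RPM in KRT19 KO nucleus (15.7 against 3.96), and 38 of the 51 came from the 1 site shown above. The comparisons of the genotypes in the 2 fractions use different libraries, but each shares its libraries with the comparisons of the fractions, and the difference between them was not tested.

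Cytoplasm was next compared with nucleus within each cell line. In parental cells ITGA6 (143 against 61.6 RPM, log2 ratio 1.22, 1.00 to 1.44) and ITGAV (169 against 80.3, 1.07, 0.88 to 1.27) were at least 2-fold higher in the cytoplasm. ITGA3 was lower (132 against 446, -1.75, -1.88 to -1.62). Thus 2 of 6 genes were higher and 1 lower, where 19.1% of 7766 genes were higher and 31.3% lower. ITGA2, ITGB1 and ITGB5 lay between -0.48 and -0.25, near the median of -0.49 over all genes. Relative to that median ITGA2 was at 0.04 and ITGB5 at 0.23, so the direction of both depends on the scaling. By class, the parental medians over all genes were -0.97 in intron reads and 3.08 in 3′UTR reads. In intron reads ITGAV (-0.29), ITGB1 (-0.47) and ITGB5 (-0.29) were above the median, and ITGA2 (-1.37), ITGA3 (-1.80) and ITGA6 (-1.60) below. In 3′UTR reads ITGA2 (1.35), ITGA3 (-0.17) and ITGA6 (2.91) were below the median. ITGAV had no 3′UTR cluster in parental nucleus. In KRT19 KO cells no integrin gene was at least 2-fold higher and 3 of 6 were lower, where 26.1% of 7688 genes were higher and 38.0% lower. These 3 were ITGA3 (-2.14, -2.35 to -1.92), ITGB1 (-1.91, -2.08 to -1.74) and ITGA2 (-1.13, -1.37 to -0.88). Relative to the median of -0.48 over all genes ITGA2 was at -0.64, within 2-fold. ITGA6 with 0.47 and ITGAV with 0.50 kept more reads in the cytoplasm. Without the leading site of each member ITGA6 had -1.35 and ITGAV 0.05 in parental cells, so neither was 2-fold higher in the cytoplasm then.

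**Figure D4:**
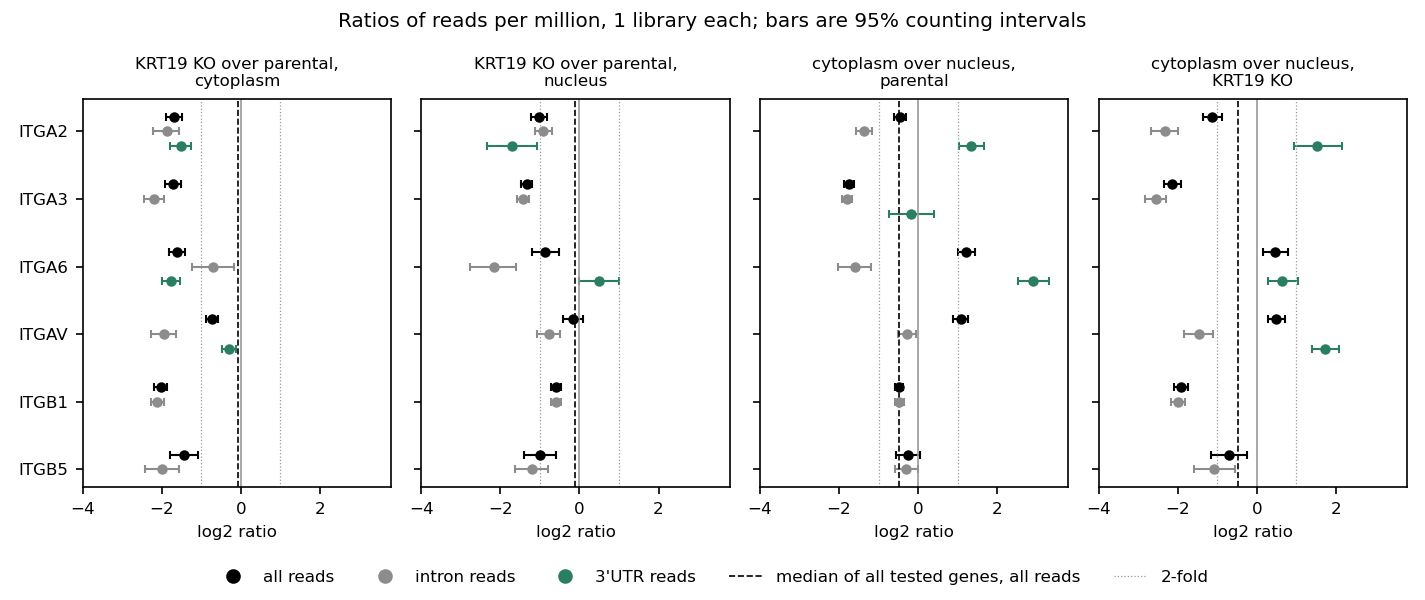
Log2 ratios of RPM between 2 libraries (x axis) for the 6 integrin genes with enough reads, from all reads (black), intron reads (grey) and 3′UTR reads (green), with bars for the 95% counting interval, a dashed line at the median of all genes tested and dotted lines at 2-fold. Points are drawn for at least 100 reads and a cluster in both libraries. In the first panel all black points lie left of 0, from -2.03 for ITGB1 to -0.73 for ITGAV.

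Reads near ITGB1 also lay in clusters that do not carry its name. Downstream of its canonical transcript, at chr10:33176201-33189245 on the same strand, lay 81 clusters with 3604 reads, of which 73 clusters had no gene name and 8 were named RP11-479G22.8 in the deposited annotation. In GENCODE v44 the stretch lies within the ITGB1 gene, up to the last exon of a longer ITGB1 transcript, and 7 of the clusters overlapped that exon. The deposited annotation does not give these reads to ITGB1, and they were left out of the values above. Whether they come from ITGB1 transcripts was not tested. The downstream clusters had 244 RPM in parental cytoplasm, 253 in KRT19 KO cytoplasm, 106 in parental nucleus and 92.2 in KRT19 KO nucleus. They thus were higher in the cytoplasm of both cell lines (log2 ratios 1.20, 1.03 to 1.37, and 1.46, 1.28 to 1.64), and differed little between KRT19 KO and parental cytoplasm (0.06, -0.05 to 0.16). Counted together with them, ITGB1 had a log2 ratio of -0.68 between KRT19 KO and parental cytoplasm, which is within 2-fold, and of -0.09 between KRT19 KO cytoplasm and nucleus. The clusters without a gene name held 3460 of the reads, and of 8215 genes 0.0852% had more such reads in the same length downstream, where the median gene had 18. Of the other members tested, ITGA3 had 60 such reads and ITGA2, ITGA6, ITGAV and ITGB5 0 to 5.

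**Figure D5:**
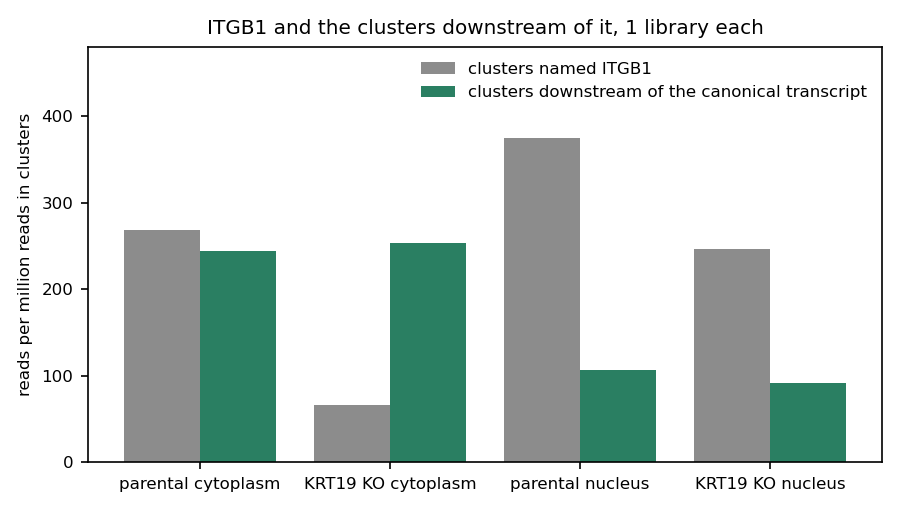
RPM (y axis, from 0) in the 4 libraries, 1 library per bar, for clusters named ITGB1 (grey) and for clusters on the same strand downstream of its canonical transcript (green). The grey bars fall from 268 in parental to 65.8 in KRT19 KO cytoplasm, and the green bars are 244 and 253.

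Other genes of the pathway were taken from 3 lists. Of 18 other integrin subunit genes, 10 had a cluster, and of those tested between KRT19 KO and parental cytoplasm 2 of 4 were at least 2-fold lower and none higher, where 20.2% of all genes tested were lower and 19.6% higher. Of 14 ligand genes, 12 had a cluster, with 2 of 8 lower and 1 higher in that comparison. All 18 genes of adhesion adaptors and kinases had a cluster, with 2 of 13 lower and 3 higher. The medians of their log2 ratios were -1.16, -0.32 and -0.51. In the nucleus the counts lower were 2 of 5, 3 of 9 and 2 of 13, with 1 ligand gene higher, against 15.7% lower and 11.2% higher of all genes. Between cytoplasm and nucleus, 9 of 15 adaptor and kinase genes were lower in the cytoplasm of parental cells and 8 of 13 in that of KRT19 KO cells. None was higher, against 31.3% and 38.0% lower and 19.1% and 26.1% higher of all genes. The medians of this list were -1.18 and -1.16, where intron reads of all genes had medians of -0.97 and -1.60. The list was not split by class, so the part of intron reads in these counts was not tested. Genes past 2-fold in both cell lines with at least 200 reads in every library were THBS1, LAMA5, COL4A2, ACTN1, ACTN4 and TNS3. THBS1, which encodes the matrix protein thrombospondin, was higher in the cytoplasm, with log2 ratios of 2.99 in parental and 2.35 in KRT19 KO cells. LAMA5, a laminin chain, had -3.70 and -3.35, and COL4A2, a collagen chain of basement membranes, -1.58 and -1.22. The actin crosslinkers ACTN1 (-1.06 and -1.32) and ACTN4 (-1.63 and -3.03) and the adhesion protein TNS3 (-1.57 and -2.31) were lower there as well.

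The genes whose pattern was most like that of ITGB1, over its intron and exon reads in the 4 libraries, were FYN, CTNNAL1 and NAV3. The Euclidean distances, on the log2 scale of RPM plus 1, were 1.38, 1.50 and 1.54, beside a median of 8.13 over all genes compared. These were chosen as the smallest distances of 3579 genes, so they lie below the median by choice. The distance counts level as well as pattern. FYN, a kinase of the SRC family, had 164 RPM in introns in parental cytoplasm, 41.3 in KRT19 KO cytoplasm, 265 in parental nucleus and 214 in KRT19 KO nucleus.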

How the data were processed

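According to the paper's methods, the authors demultiplexed the PAR-CLIP reads with Bcl2fastq and cutadapt, referred them to hg19 and called clusters with PARalyzer. The aligner is not given in the sources used here. The authors deposited, per cluster, raw counts (all reads, distinct reads, converted positions and reads that carry a conversion), and also a fraction of converted reads, a mode score and a log10 specificity, of which the counts were used. The processing notes also name Cufflinks 2.2.1 and TopHat. The 17 RNA-seq samples were not analysed here.

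Clusters were kept where the deposited gene name was exactly a member's, and scaled to RPM, reads per 1000000 of the library's cluster total. The members and lists were chosen with earlier results of these data known. Clusters on the same strand overlapping by at least 1 nt formed a site. Ratios carry exact binomial (Clopper-Pearson) intervals, with a 0 set to 3 reads, and shares 95% Wilson intervals, all for counting error only. Named were the 8 members, the site with the most reads of each and the one in its 3′UTR (for ITGA3 the latter, at 32 reads, is only plotted), KRT19, pathway genes past 2-fold in both fractions or both cell lines, and the 3 genes most like ITGB1. Distances used Ensembl canonical transcripts of GENCODE v44 lifted to GRCh37. Steps were tested on simulated data. Python 3.11.15, numpy 2.4.6, pandas 2.3.3, scipy 1.17.1 and matplotlib 3.10.9 were used.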

Additional observations from a re-analysis of the deposited data

Results flagged for a closer look

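The 81 clusters downstream of ITGB1, with 3604 reads, are outside the measurements by gene name and lie far above the level of other genes. By library they held 1353 reads in parental cytoplasm, 1575 in KRT19 KO cytoplasm, 376 in parental nucleus and 300.0 in KRT19 KO nucleus, with T-to-C shares of 56.8%, 59.7%, 64.9% and 68.7%. They formed 46 sites, of which 22 (47.8%) were found in 2 or more libraries and 4 in all 4. Whether they belong to ITGB1 transcripts was not tested.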

How the results depend on the processing

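No paired analysis was possible because each condition had 1 library and no test was made. ITGA6 reversed under 2 alternatives chosen after seeing the data: between KRT19 KO and parental cytoplasm its log2 ratio was 0.96 without the site with the most reads of each member and 0.19 in intron reads alone, and between parental cytoplasm and nucleus -1.35 and -0.94. Under the same 2 alternatives, 0 genes were 2-fold higher in parental cytoplasm than nucleus, in place of 2. Leaving out those sites, 2 were lower there in place of 1, and in KRT19 KO cells 1 was higher in place of 0. With intron reads, 1 gene was lower in KRT19 KO cytoplasm than nucleus in place of 3. Counting the downstream clusters with ITGB1, also chosen after seeing the data, left 4 genes lower in KRT19 KO cytoplasm than in parental in place of 5. In the nucleus, a minimum of 50 reads added 1 higher gene, ITGB3, and scaling without the largest cluster, or centring on the median gene, left 1 lower gene in place of 2: ITGA2, at -1.01 as reported, came to -0.999 and -0.90. With clusters of at least 10 reads ITGA2 had -0.99 and was lost, and ITGB5 with -1.45 was gained. Leaving out the leading sites added ITGA6 there at -2.69, and intron reads alone gave ITGA3, ITGA6 and ITGB5 as lower, without ITGA2. Centring also ended the ITGA2 call between cytoplasm and nucleus of KRT19 KO cells (-0.64). With clusters of at least 10 reads, 65 of 218 sites were in 2 or more libraries. Weighted by reads, 3′UTRs took 35.6% in the cytoplasm of parental cells and 49.3% in that of KRT19 KO cells. The shares of all genes past 2-fold under these alternatives were not counted, and the causes of these changes were not tested. With 1 library per condition, the spread between replicates is unknown, and sites under 5 reads are not listed.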
